A study of Mus musculus with 47 samples.

Results

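The cytosolic ribosomal protein genes were taken as every gene whose symbol follows the Rpl or Rps numbering, together with Rplp0, Rplp1, Rplp2 and Rpsa. The rule found 88 of the 45706 genes in the deposited table. They comprise 31 genes for proteins of the small (40S) subunit, 43 for proteins of the large (60S) subunit, 3 for the stalk of the large subunit, and 11 extra copies that resemble one of these genes. The rule used symbols only and no measured value.

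A cytosolic ribosome carries one copy of nearly every one of these proteins, so their genes are made in step and are known to share control at transcription and at translation. Their messenger RNAs typically begin with a C followed by a run of pyrimidines, the 5' terminal oligopyrimidine (TOP) motif, through which the mTOR kinase sets how strongly they are translated. In neurons the same proteins are needed in the cell body and, for local protein synthesis, near synapses.

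Each library holds RNA from hippocampus or prefrontal cortex (PFC) of diet-induced obese mice that received isotonic saline, mPD5 at 56 mg/kg or UCCB01-147 at 25 mg/kg, daily for 5 days, with tissue taken 2 hours after the last injection. The sample labels name the groups saline, PICK1i and PSD-95i. The match of PICK1i to mPD5 and of PSD-95i to UCCB01-147 rests on general knowledge of these compounds, which block the PDZ domains of PICK1 and PSD-95, partners of glutamate receptors at the synapse. The sources used here give neither strain nor age, and the protocol describes dissection of hypothalamus and 6 saline mice, so whether its doses and times hold for these tissues is uncertain. Each of the 3 treatments had 8 libraries from PFC, and hippocampus gave 7 saline, 8 PICK1i and 8 PSD-95i libraries. Nothing in the labels ties libraries to individual mice, so the p-values speak only to the spread among these libraries.

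The PFC libraries held 5434477 to 12673677 estimated counts each and the hippocampal ones 5378175 to 13139410, and no libraries of a group agreed within counting noise. The summed level of hippocampal marker genes was higher in hippocampus (median 1189 CPM, counts scaled to the TMM-adjusted library total) than in PFC (283 CPM), and that of cortical markers was higher in PFC (628 against 165 CPM). Some libraries stood apart. Hippocampal PICK1i replicate 7 had 1515 CPM of thalamic markers (hippocampal median 124 CPM) and 222 CPM of hippocampal markers, the lowest of its tissue. Striatal markers reached 2340 CPM in hippocampal saline replicate 1 and 1567 CPM in hippocampal PICK1i replicate 2 (median 95.03 CPM), and 591 CPM in PFC saline replicate 1 (median 206 CPM). Olfactory bulb markers reached 580 CPM in PFC PICK1i replicate 6 (median 18.9 CPM), and PFC PICK1i replicate 1 held the most mitochondrially encoded RNA, 16.7% of its counts. Median shifts between treatments and the tissue count of calls are given with and without these 6 libraries, while ranges of levels include them.

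Ribosomal protein transcripts were abundant and spanned a wide range of levels. Per transcript length, the median member stood at 301 TPM (counts per transcript length, scaled to the library; the median over the 47 libraries), and 72 of the 86 members with a usable length exceeded 100 TPM. The 40S members had a median of 324 TPM and the 60S members one of 307 TPM. The highest were Rplp1, a stalk protein that helps recruit elongation factors, at 1571 TPM, followed by Rps29 at 820, Rps15 at 673, Rpl4 at 657 and Rpl8 at 648 TPM. The extra copies were much lower, with a median of 21.4 TPM.

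Among the extra copies, those known from other tissues were near zero. Rpl10l and Rpl39l, known from testis, had median levels of 0 TPM. Rpl3l, known from heart and skeletal muscle, stood at 0.362 TPM. Rps12l2 followed at 2.501 TPM and Rps27l at 13.6 TPM. Rpl10l, Rpl39l, Rpl3l and Rps12l2 had too few counts to be tested, which left 84 members in every comparison below.

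How cleanly these genes can be counted differed between members. Processed pseudogenes are abundant for this family: 260 further rows of the table carried a member's symbol with a pseudogene or retrogene suffix, and they held 9.32% of the counts of members and pseudogenes together. For Rpl27 this share was 59.6%, for Rpl19 46.2% and for Rpl31 43.2%, and it passed 10% for 23 members. Genes under other symbols that share sequence with a member, such as Gm10073 with Rplp1, are not in these shares. The shares can therefore understate the counts on copies. Over all transcripts of a member, the median share of 52-base windows (the read length) that also occurred in another gene was 23.02%. Rps12l1 shared every window, Rps12 85.2% and Rps13 82.5%, whereas Rps15a shared 4.62% and Rpl22 3.23%. These shares depend on how much transcript sequence is annotated: Rps12 shared 374 of 439 windows and Rps15a 291 of 6293. A low share thus does not show that a member is free of shared sequence. The levels of members with a high share are therefore uncertain, because the estimation could split reads between copies. Exons of 27 members overlapped those of another annotated gene on the same strand, such as small nucleolar RNAs, and exons of 20 members did so on the opposite strand.

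The annotated transcripts that received these counts were mostly, but not all, coding. A median of 75.8% of the members' counts lay on protein-coding transcripts in both tissues. Transcripts annotated as retaining an intron held 15.4% in PFC (14.8 to 15.7%) and 15.5% in hippocampus (14.6 to 15.8%). The ranges of the tissues overlapped. For 22 members the share on such transcripts passed 25%, with Rps16 at 79.6%, Rps18 at 75.7% and Rpl3 at 72.0% the highest. With 52-base reads, assignment between transcripts of a gene is an estimate.

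The start sites were searched for the motif the family is known for. In the RefSeq promoter table (GRCm38.p6, from 250 bases before to 50 after each annotated start), 63 members had an entry. A run of at least 5 pyrimidines that begins with C lay within 10 bases of the annotated start in 39 of them (61.9%), against 34.4% of all 27025 promoters, searched on the gene's strand. It began exactly at the start in 13 (20.6%), against 3.01% of all promoters. The letters CCGGAAG, on either strand, occurred in 26 members (41.3%) and in 9.93% of all promoters. The letters AAGATGG, on either strand, occurred in 10 members (15.9%) and in 7.28% of all promoters. A match describes letters in a window and no more. With the extra copies left out, 19 of 35 members higher in hippocampus (below) and with an entry held the pyrimidine run near the start (54.3%). Of those not called, again without extra copies, 14 of 21 did (66.7%).

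Windows from 30 bases before to 20 bases after the start are shown for 9 members whose data are described below, each 5' to 3' on the gene's strand with the pyrimidine run in capitals. Rps15a begins with it at the first base, while it starts a few bases downstream in Rpl12, Rpl22l1, Rps2 and Rps12. The windows of Rplp0, Rps13, Rps4x and Rpl41 hold no such run within 10 bases of the start and are printed last, with no capitals.
Rps15a, chr7:118116128-118116177, minus strand: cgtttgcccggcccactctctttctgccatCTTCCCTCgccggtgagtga
Rpl12, chr2:32961682-32961731, plus strand: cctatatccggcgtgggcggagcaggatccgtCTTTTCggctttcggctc
Rpl22l1, chr3:28805478-28805527, plus strand: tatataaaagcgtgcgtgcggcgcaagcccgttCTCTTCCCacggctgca
Rps2, chr17:24720033-24720082, plus strand: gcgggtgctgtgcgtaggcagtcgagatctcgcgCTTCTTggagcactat
Rps12, chr10:23787190-23787239, minus strand: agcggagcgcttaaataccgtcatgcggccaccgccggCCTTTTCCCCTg
Rplp0, chr5:115559437-115559486, plus strand: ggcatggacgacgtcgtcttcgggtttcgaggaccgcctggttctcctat
Rps13, chr7:116334171-116334220, minus strand: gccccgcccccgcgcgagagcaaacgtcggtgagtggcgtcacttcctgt
Rps4x, chrX:102189372-102189421, minus strand: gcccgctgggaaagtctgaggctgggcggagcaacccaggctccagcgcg
Rpl41, chr10:128549149-128549198, minus strand: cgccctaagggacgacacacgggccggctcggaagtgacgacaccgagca

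The members together took about 1% of all counts in each library, with a somewhat larger share in hippocampus. In PFC the share ran from 0.830 to 1.00% after saline (median 0.948%), from 0.800 to 1.23% after PICK1i (median 0.905%) and from 0.837 to 1.02% after PSD-95i (median 0.890%). In hippocampus it ran from 0.961 to 1.09% after saline (median 1.06%), from 0.887 to 1.251% after PICK1i (median 1.02%) and from 0.955 to 1.07% after PSD-95i (median 1.03%). The ranges of the 3 treatments overlapped in both tissues, as did those of the tissues. The ratio of 60S to 40S counts was nearly constant, with a median of 1.54 in PFC (1.501 to 1.58) and 1.4999 in hippocampus (1.46 to 1.53).

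**Figure D1:**
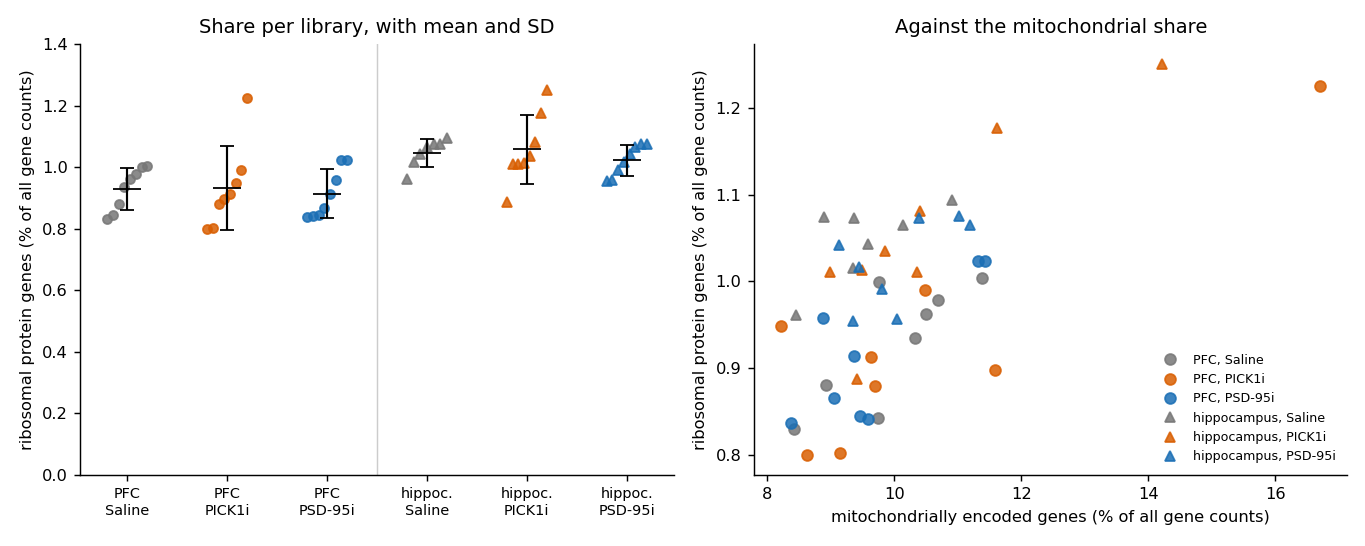
Left, percent of all gene counts held by the 88 members, 1 point per library, with the mean and SD of each group as bars. Right, the same share (vertical) against the percent of counts on mitochondrially encoded genes (horizontal). PFC PICK1i replicate 1 (1.23%) and hippocampal PICK1i replicate 7 (1.251%) lie highest on both measures.

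Within a group, libraries that were high in one ribosomal protein transcript were high in most. Among the 77 members that are not extra copies, the first principal component of the deviations from the group means held 75.5% of the variance in PFC and 67.7% in hippocampus. The median correlation between 2 members was 0.78 over the 24 PFC libraries and 0.66 over the 23 hippocampal ones, as a description, since members measured in a library share its depth and its scaling. In PFC PICK1i replicate 1 all 77 lay above their group mean, by a median of 0.49 on the log2 scale. Hippocampal PICK1i replicate 4 lay lowest, with 2 of 77 above the mean and a median deviation of -0.26. The median SD within a group was 0.18 (log2) in PFC and 0.13 in hippocampus. The most variable member was Rpl39 (0.31 and 0.22), which lines the exit tunnel of the nascent protein, and the least variable were Rps15a in PFC (0.07) and Rpl4 in hippocampus (0.06). PFC PICK1i replicate 1 and hippocampal PICK1i replicate 7, highest in members' share, also had the largest mitochondrial shares of their tissues, 16.7 and 14.2%. The part of that share in the ribosomal protein level was not tested.

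Neither inhibitor changed a ribosomal protein transcript detectably in PFC. Of the 84 members tested, 0 were called (adjusted p under 0.05) in the comparison of PICK1i with saline, where 0.201% of all 14911 genes passed, 0.181% higher and 0.0201% lower. For PSD-95i against saline 0 of 84 passed, with 0% of all genes. For PSD-95i against PICK1i 0 of 84 passed, with 0.335% of all genes, 0.0738% higher and 0.262% lower. At an unadjusted p under 0.05 the edgeR counts were 1, 0 and 0 of 84 members, against 852, 946 and 1431 of all 14911 genes. At the adjusted threshold DESeq2 and limma voom also called 0 members in each.

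The same held in hippocampus. There 0 of 84 members passed in each of the 3 comparisons of treatments, and 0% of the 15051 genes tested. At an unadjusted p under 0.05 the edgeR counts were 0 for PICK1i against saline, 1 for PSD-95i against saline and 0 for PSD-95i against PICK1i. Over all 15051 genes these counts were 580, 231 and 734. DESeq2 and limma voom called 0 members in each comparison.

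The intervals left little room for large changes of most members. For PICK1i against saline the 95% interval lay within 1.3-fold in either direction for 80 members in PFC and 83 in hippocampus. For PSD-95i against saline these numbers were 79 and 82, and for PSD-95i against PICK1i 79 and 83. The median members' standard errors were 0.09 in PFC and 0.07 in hippocampus (log2). A p above the threshold does not show that the groups were alike.

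The small common shifts of the family turned with a few libraries. The median log2 difference of the 84 members was 0.02 for PICK1i against saline in PFC and 0.02 in hippocampus, against 0.01 and 0.00 over all genes tested. Without the 6 libraries that stood apart these medians changed sign, to -0.08 and -0.05, with 0 members called. PSD-95i against PICK1i gave medians of -0.05 in PFC and -0.04 in hippocampus, which became 0.04 and 0.04 without those libraries. For PSD-95i against saline the medians were -0.03 in PFC and -0.03 in hippocampus, and -0.04 and -0.02 without them. The comparisons with saline share their saline libraries. Leaving out only PFC PICK1i replicate 1 moved the PFC median of PICK1i against saline to -0.06.

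The member with the smallest p among the drug comparisons was Rps4l, a retrocopy of Rps4x, after PICK1i in PFC. Its level ran from 10.2 to 17.4 CPM after saline (median 12.8 CPM), from 6.70 to 15.2 CPM after PICK1i (median 9.05 CPM) and from 8.08 to 13.8 CPM after PSD-95i (median 11.4 CPM). The 3 groups overlapped. The log2 difference for PICK1i against saline was -0.41 (SE 0.16, unadjusted p 0.0192), and the adjusted p was 0.761 by edgeR. In hippocampus Rps4l ran from 20.6 to 32.1 CPM after saline (median 27.1 CPM), from 21.5 to 27.8 CPM after PICK1i (median 24.7 CPM) and from 18.1 to 38.5 CPM after PSD-95i (median 25.2 CPM), again overlapping.

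Rps28, a small 40S protein, came next for PICK1i against saline in PFC. It ran from 36.3 to 56.6 CPM after saline, from 37.4 to 79.0 CPM after PICK1i and from 29.1 to 52.3 CPM after PSD-95i. The log2 difference was 0.22 (SE 0.13) for PICK1i against saline and -0.27 (SE 0.13) for PSD-95i against PICK1i, with adjusted p of 0.924 and 0.539. Its highest library was again PFC PICK1i replicate 1.

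The other members with the smallest p had smaller log2 differences than Rps4l after PICK1i. For PICK1i against saline in PFC these were Rpl35 at 0.15, Rps18 at 0.13 and Rpl29 at 0.12 (log2 differences). For PSD-95i against saline in PFC they were Rps4l at -0.26, Rpl22l1 at -0.17, Rpl18 at 0.16, Rps13 at -0.09 and Rps15a at -0.06. For PSD-95i against PICK1i in PFC they were Rps12 at -0.15, Rps26 at -0.13, Rps23 at -0.13 and Rpl7l1 at -0.09. None of these passed the adjusted threshold.

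In hippocampus the members with the smallest p differed from saline by at most 0.22 on the log2 scale. After PICK1i they were Rps3a3 at -0.15, Rps3a2 at -0.12, Rps27a at 0.09, Rps15a at 0.09 and Rps2 at -0.09. After PSD-95i they were Rps3a3 at -0.22, Rplp2 at -0.11, Rps19 at -0.07, Rps15a at 0.07 and Rps3a1 at -0.07. Rps3a2 and Rps3a3 are annotated as processed pseudogenes of the 40S gene Rps3a1. Between the inhibitors they included Rpl31 at -0.12, Rpl22 at 0.08 and Rps3a1 at -0.08.

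The effect of an inhibitor did not differ detectably between tissues for any member. For PICK1i 0 of 84 members passed (0.00639% of all 15658 genes), and for PSD-95i 0 of 84 (0% of all genes). With an unadjusted p under 0.05 there was 1 member in each, Rps15a both times, with differences of effect of 0.14 (SE 0.06) and 0.13 (SE 0.06) on the log2 scale. The next were Rps4l at 0.33, Rpl29 and Rps18 at -0.14 and Rpl22 at -0.10 for PICK1i. For PSD-95i they were Rps4l at 0.28, Rps3a3 at -0.20, Rpl18 at -0.19 and Rps12 at 0.13. Both effects share the saline libraries of each tissue. The number of all genes with an unadjusted p under 0.05 is not given here for these contrasts.

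**Figure D2:**
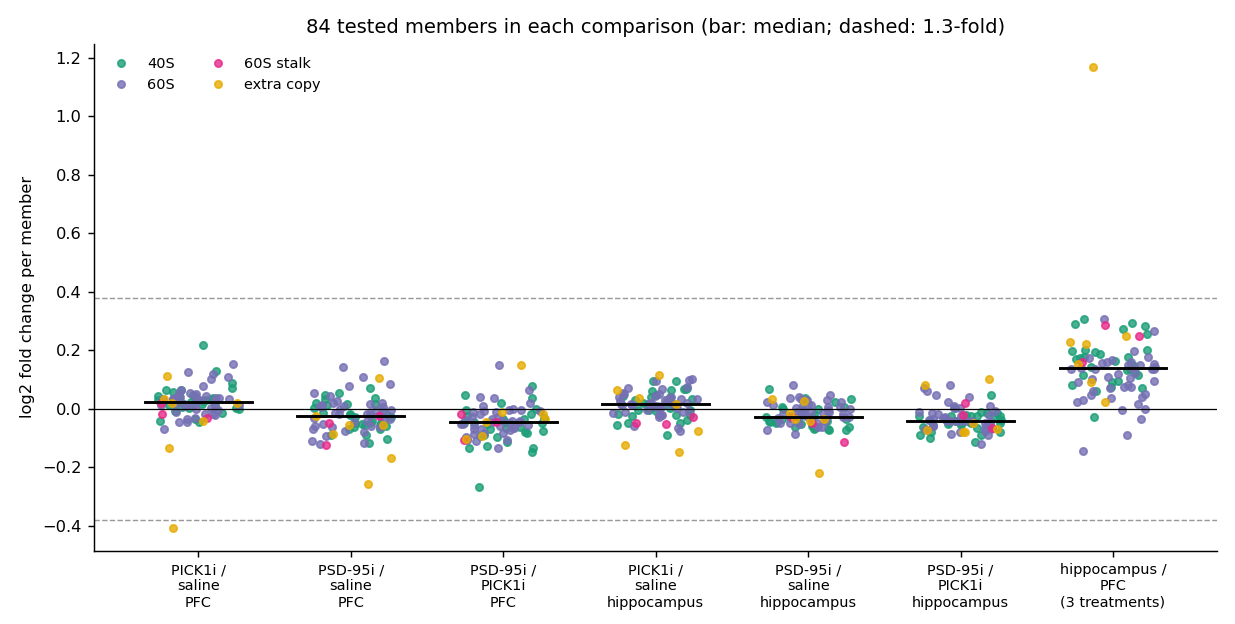
Log2 fold change (vertical) of the 84 tested members in the 6 comparisons of treatments and in hippocampus against PFC, 1 point per member coloured by role, with the median as a bar and 1.3-fold as dashed lines. The 6 treatment medians lie between -0.05 and 0.02, and the tissue median lies at 0.14 with Rps4l apart at 1.17.

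Between the tissues, the ribosomal protein transcripts that were called differed mostly by small amounts and mostly in one direction. Averaged over the 3 treatments, 55 of the 84 members were higher in hippocampus than in PFC and 1 was lower. Over all 15658 genes tested, 32% were higher and 29.6% were lower, 61.6% in all. The 56 of 84 members called in either direction are near that last share, so the number of calls does not set the members apart. The median log2 difference of the members was 0.14, against 0.01 for all genes. In bulk tissue a difference in a cell type's number and one in RNA per cell cannot be told apart. Sign was the same under TMM, RLE, upper-quartile and total-count scaling for 80 of the 84 members.

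Summed levels of several cell type markers differed between the tissues, while cell makeup itself was not measured. All 8 oligodendrocyte markers were detected in both tissues, with summed levels of 1628 to 3805 CPM in PFC (median 2428) and 2307 to 13476 CPM in hippocampus (median 5143). The 6 neuronal markers summed to a median of 8502 CPM in PFC and 5784 CPM in hippocampus, with no overlap. The 6 astrocyte markers had medians of 1461 and 1908 CPM. The 6 choroid plexus markers ran from 1.45 to 12.2 CPM in PFC and from 38.9 to 5591 CPM in hippocampus. Their part in the ribosomal protein differences was not tested. Without the 5 hippocampal libraries highest in choroid plexus markers, 45 members were higher and 1 was lower, and the share of all genes called in that fit is not given here.

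Of the 40S proteins, 24 of 31 were higher in hippocampus (32% of all genes) and 0 were lower (29.6% of all genes). Their median log2 difference was 0.16. Rps15a, a core protein of the small subunit, had the smallest p among them. It ran from 83.3 to 106 CPM in PFC (median 95.9 CPM) and from 96.9 to 119 CPM in hippocampus (median 111 CPM). Of the 23 hippocampal libraries, 17 lay above every PFC library. The difference was 0.19 (SE 0.03, 1.14-fold, edgeR adjusted p 9.6e-09).

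Rps13 and Rps2 were higher in hippocampus as well. Rps13 had PFC levels of 41.4 to 57.3 CPM (median 49.8) and hippocampal levels of 47.9 to 74.3 CPM (median 61.6). It was 1.23-fold higher (log2 0.29, adjusted p 2.79e-08), and 18 of 23 hippocampal libraries exceeded every PFC library. Rps2, which sits at the channel where messenger RNA enters, ran from 88.2 to 133 CPM in PFC (median 107) and from 96.5 to 146 CPM in hippocampus (median 132). It was 1.196-fold higher (log2 0.26, adjusted p 2.59e-07), with 9 of 23 hippocampal libraries above every PFC library.

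Rps12 and Rps26 were higher in hippocampus too, with fewer hippocampal libraries above every PFC library than for Rps13 and Rps2. Rps12 had medians of 79.6 CPM in PFC (62.7 to 108) and 97.5 CPM in hippocampus (77.7 to 119), a log2 difference of 0.29 (SE 0.05). Rps26, which contacts messenger RNA ahead of the start codon, had medians of 82.2 CPM (65.3 to 124) and 102 CPM (85.6 to 119), a log2 difference of 0.28 (SE 0.05). For Rps26 0 of 23 hippocampal libraries exceeded the highest PFC library, but 23 of 23 exceeded the PFC median. The 7 members of the 40S group that were not called included Rps14 at -0.03, the only 40S member with a value below 0.

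Of the 60S proteins, 23 of 43 were higher in hippocampus (32% of all genes) and 1 was lower (29.6% of all genes). The other 19 were not called, and the median log2 difference of the 43 was 0.11. Rpl3, which reaches towards the site of peptide bond formation, ran from 143 to 188 CPM in PFC (median 159.9) and from 178 to 217 CPM in hippocampus (median 202). Of the 23 hippocampal libraries, 21 exceeded every PFC library, and 1 PFC library, PICK1i replicate 1, exceeded the lowest hippocampal one. The difference was 0.31 (SE 0.03, 1.24-fold, edgeR adjusted p 9.92e-13). Counting only coding transcripts, which held 24.7% of its counts, gave 0.22.

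Rpl10 and Rpl22 were the other 60S members with the smallest p. Rpl10, added late in assembly and needed for the subunits to join, had medians of 99.7 CPM in PFC (84.7 to 154) and 124 CPM in hippocampus (115 to 142), a log2 difference of 0.27 (SE 0.05). Rpl22 lies at the outer surface of the large subunit and had medians of 60.4 CPM (50.2 to 70.2) and 68.2 CPM (56.3 to 76.8). Its log2 difference was 0.18 (SE 0.03), with 7 of 23 hippocampal libraries above every PFC library. Rpl7 was higher by 0.16 (SE 0.04), and Rpl39 at 0.12 (SE 0.07, adjusted p 0.167) was not called.

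Rpl12 was the 1 member called lower in hippocampus in the average over the 3 treatments. It binds the base of the stalk beside Rplp0. It ran from 115 to 189 CPM in PFC (median 136) and from 113 to 146 CPM in hippocampus (median 125), so the tissues overlapped widely. The difference was -0.14 (SE 0.04, 0.905-fold, edgeR adjusted p 0.00456). Within treatments it was -0.11 after saline (adjusted p 0.258), -0.12 after PICK1i (adjusted p 0.215) and -0.19 after PSD-95i (adjusted p 0.0329). Exons of Lrsam1 overlap those of Rpl12 on the opposite strand, and Lrsam1, looked up after these values were seen, was lower too (-0.22, SE 0.04). The sources used here do not say whether counting used strand.

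All 3 stalk proteins, which bring elongation factors to the ribosome, were higher in hippocampus, as were 32% of all genes tested. Rplp0, the base of the stalk, ran from 116 to 170.4 CPM in PFC (median 133) and from 133 to 173 CPM in hippocampus (median 162). Its log2 difference was 0.25 (SE 0.03, edgeR adjusted p 1.84e-08). Of the 23 hippocampal libraries, 22 exceeded the PFC median and 1 exceeded the highest PFC library. The highest PFC library was PFC PICK1i replicate 1 (170.4 CPM, others of its group at most 141). Rplp1 had medians of 344 CPM (217 to 482) and 424 CPM (321 to 479), a log2 difference of 0.29 (SE 0.05). Rplp2 had medians of 81.1 CPM (59.6 to 104) and 90.3 CPM (69.2 to 107), a log2 difference of 0.16 (SE 0.05). The tissues overlapped for all 3.

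**Figure D3:**
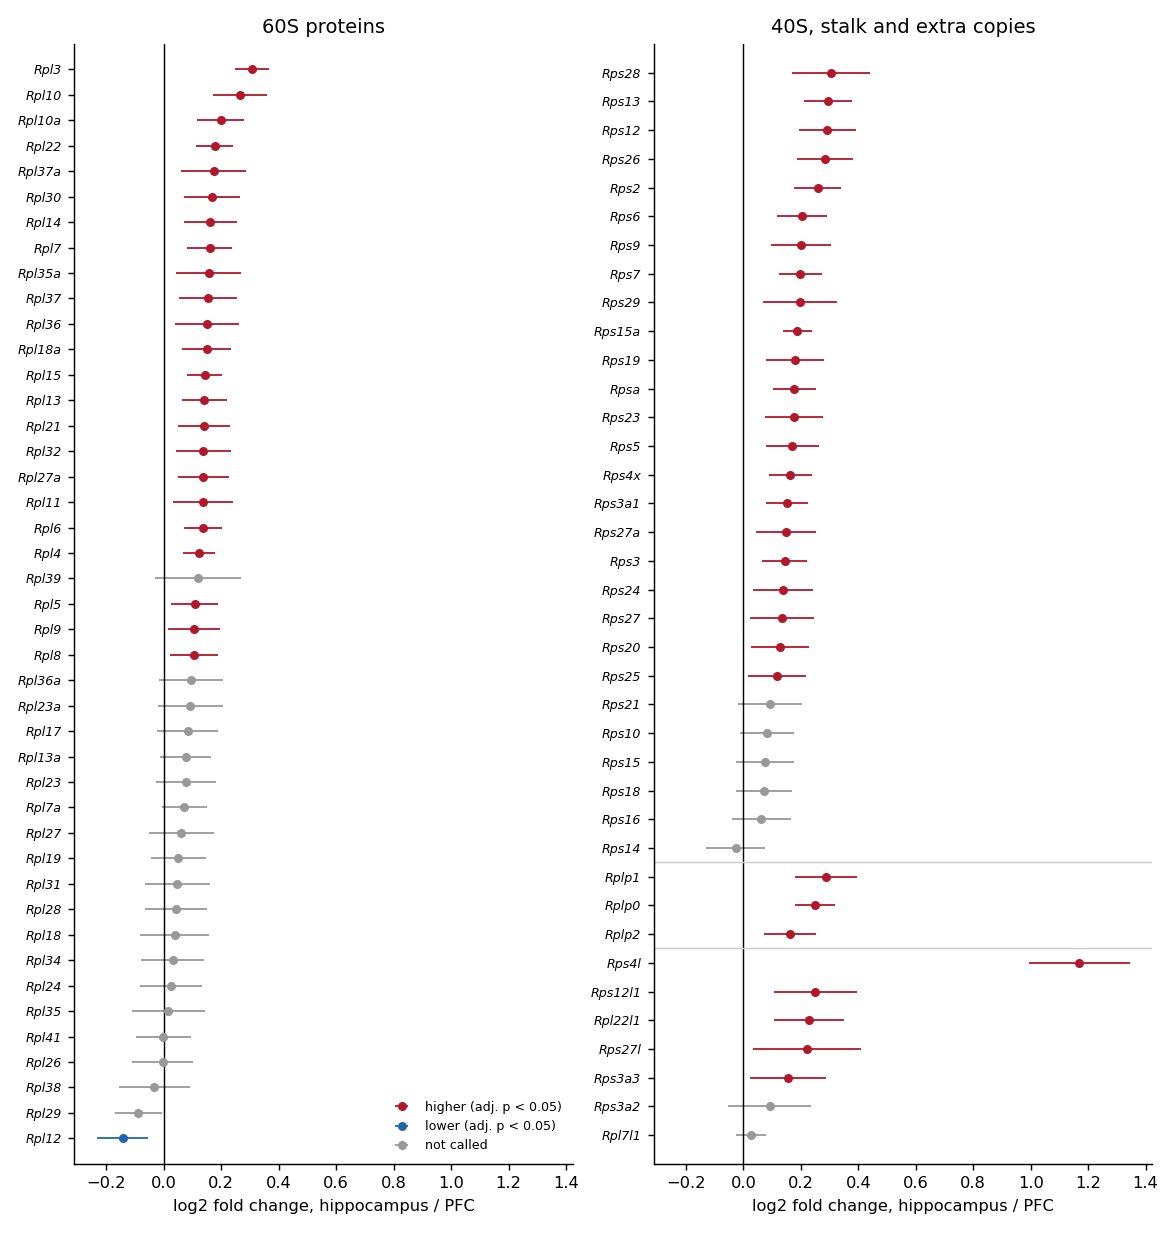
Log2 fold change, hippocampus over PFC, averaged over the 3 treatments (horizontal), for 81 of the 84 tested members (vertical), with 95% intervals and colours for calls at an adjusted p of 0.05. Most intervals lie between 0 and 0.4, Rps4l stands apart at 1.17, and Rpl12 is the lower call.

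The largest log2 difference of the 84 members belonged to the extra copy Rps4l. This gene (chr6:148354656-148355598, plus strand, GRCm38, a single exon annotated as a transcribed processed pseudogene) lies within the span of Tmtc1, on the opposite strand. It ran from 6.70 to 17.4 CPM in PFC (median 11.4) and from 18.1 to 38.5 CPM in hippocampus (median 25.8). Every one of the 23 hippocampal libraries lay above every one of the 24 PFC libraries. The log2 difference was 1.17 (SE 0.09, 2.25-fold, edgeR adjusted p 5.07e-16). It was 0.97 within the saline libraries, 1.29 within PICK1i and 1.246 within PSD-95i, and stayed between 1.14 and 1.21 when any single library was left out.

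The parent gene Rps4x, on chromosome X, was higher in hippocampus by a smaller amount, a difference of differences that was not tested. It ran from 113 to 164 CPM in PFC (median 126) and from 128 to 170.0 CPM in hippocampus (median 145), a log2 difference of 0.16 (SE 0.04, adjusted p 0.000186). Per length, Rps4x had a median of 303 TPM over all libraries and Rps4l one of 38.6 TPM. Tmtc1, whose span holds Rps4l on the other strand and which was looked up after these values were seen, stood at -0.83 (SE 0.06), opposite in sign to Rps4l.

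The copies can be told apart by their sequence, which bears on whether reads of one could be counted for the other. The Rps4l transcript aligned to the Rps4x coding sequence over 797 positions with 146 mismatches and 13 gaps, 80.0% identity, and the longest identical stretch was 35 bases, shorter than a 52-base read. No 52-base window of Rps4l occurred in Rps4x. The 14.01% of its windows that were shared were shared with Rps4l-ps. Both sequences are given for the 90-base stretch without gaps that held the most differences, so it is not typical of the whole alignment. It spans bases 31 to 120 of the Rps4x coding sequence and 85 to 174 of the Rps4l transcript (GENCODE M21). The 26 differing bases are in capitals.
Rps4x: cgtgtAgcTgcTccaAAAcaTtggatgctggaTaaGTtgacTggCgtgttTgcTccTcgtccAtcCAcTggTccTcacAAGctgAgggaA
Rps4l: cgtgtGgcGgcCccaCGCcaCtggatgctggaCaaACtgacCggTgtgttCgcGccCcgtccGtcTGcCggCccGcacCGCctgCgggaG

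Among the other extra copies, 4 of the 6 tested were also higher, as were 32% of all genes tested. Rpl22l1, which can stand in for Rpl22, had medians of 18.7 CPM in PFC (12.03 to 24.3) and 22.5 CPM in hippocampus (16.5 to 29.6), a log2 difference of 0.23 (SE 0.06, adjusted p 0.00113). Rps12l1 was higher by 0.25 (SE 0.07), though it shares every 52-base window with other genes. Rps3a3 was higher by 0.15 (adjusted p 0.0364) and Rps27l, known as a target of p53, by 0.22 (adjusted p 0.0375). Without the 5 libraries high in choroid plexus markers Rps27l stood at 0.13 (adjusted p 0.283) and Rps3a3 at 0.16 (adjusted p 0.0617). Rps3a2 at 0.09 and Rpl7l1 at 0.03 were not called, and Rpl7l1 had medians of 46.6 and 47.6 CPM.

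**Figure D4:**
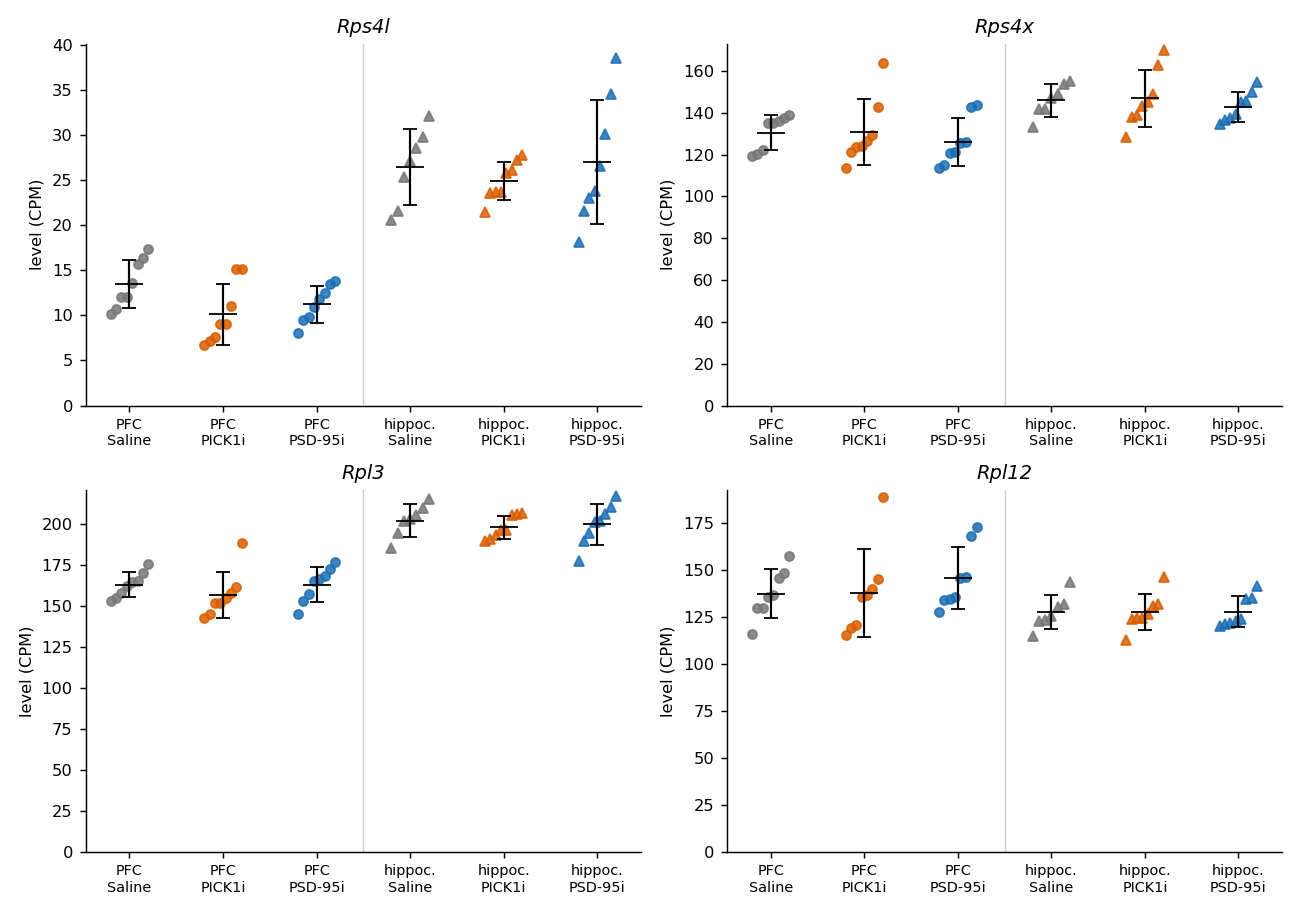
Level in CPM (vertical) of Rps4l, Rps4x, Rpl3 and Rpl12 in every library of the 6 groups, with the mean and SD as bars. Rps4l separates the tissues completely, Rpl3 nearly so, and Rps4x and Rpl12 overlap.

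The pseudogene rows are given beside the members because they share sequence. Of the 74 that were tested and counted, 25 were higher in hippocampus and 0 were lower, with a median of 0.14. Of all genes, 32% were higher and 29.6% lower. The retrogene row Rpl37rt was tested but left out of this count, and was higher as well (log2 0.18, edgeR adjusted p 0.0054). Rpl3-ps1, the largest such row of Rpl3, differed by 0.34 (SE 0.04), close to Rpl3 itself. Rps2-ps13 differed by 0.26 beside 0.26 for Rps2, and Rps13-ps4 by 0.19 beside 0.29 for Rps13. Reads split between near-identical copies would give the same pattern as expression of the copies, and these cannot be told apart here.

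Within each treatment fewer members passed the threshold than in the average over treatments. After saline 22 members were higher and 0 lower (19.5% and 18.8% of all genes, 38.3% in all). After PICK1i 21 were higher and 1 was lower (18.5% and 18.3%, 36.8% in all), the lower one being Rpl29 at -0.18 (adjusted p 0.0408), named here after its values were seen, and after PSD-95i 23 were higher and 1 was lower (23.1% and 21.9%, 45% in all), the lower one being Rpl12. The median log2 differences were 0.13, 0.14 and 0.14. These counts leaned on single libraries. Without PFC PICK1i replicate 1 the PICK1i count of calls went from 22 to 55, and without PFC PICK1i replicate 4 or hippocampal PICK1i replicate 2 it was 14. The saline count was 13 without PFC saline replicate 2. The count over the 3 treatments ran from 49 to 68 over all single libraries left out, and was 58 (56 higher and 2 lower) without the 6 libraries that stood apart. The shares of all genes called in these reduced fits are not given here. Whether the members moved apart from other genes is therefore not shown.

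Isoform usage differed between the tissues for few members. Of 59 members with at least 2 transcripts tested, 4 passed (edgeR diffSpliceDGE, Simes), against 3.19% of all 8396 genes. These were Rpl3 (adjusted p 0.00114), Rpl41 (0.00963), Rps2 (0.0302) and Rps9 (0.0472). Rpl41 encodes one of the smallest known proteins, and its transcript Rpl41-204 held 8.55 to 16.1% of the gene's counts in PFC (median 11.5%) and 7.21 to 11.9% in hippocampus (median 9.38%). Rps2-201 held a median of 5.64% in PFC and 4.60% in hippocampus, and Rps9-204 held 5.85 and 4.63%. The tissues overlapped for all 3 transcripts. For Rpl3 the transcript that passed held 0.769% of the gene's counts.

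Other genes of translation were counted from lists of their own, to be read against the 32% of all genes that were higher and the 29.6% that were lower. Of 5 ribosomal protein genes or partners outside the symbol rule, including the ubiquitin-like fusion gene Fau, 0 passed (edgeR counts at an adjusted p of 0.05), with a median log2 difference of 0.05. Among 16 genes listed for translation elongation or as partners of TOP messenger RNAs, 7 were higher in hippocampus and 2 lower. Eef1a1, the elongation factor that delivers aminoacyl-tRNA, was higher by 0.50 (SE 0.03, 1.41-fold), and its neuronal and muscle counterpart Eef1a2 was lower (log2 difference -0.30, SE 0.03). Eef2k, the kinase that restrains elongation, was lower too (-0.49, SE 0.05).

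Members of the other lists were called in both directions, against the same 32% and 29.6% of all genes. Of 36 initiation factors 9 were higher and 8 lower, such as Eif3e at 0.28 and Eif4g3 at -0.36. Of 60 ribosome biogenesis genes 16 were higher and 8 lower, with Utp20 at 0.34 and Tcof1, which serves rRNA transcription, at -0.71. In the mTOR pathway and S6 kinase list 7 of 24 were higher and 9 lower, among them the mTOR inhibitors Ddit4 at 0.74 and Deptor at -1.42. Of 12 ribosome quality control genes 3 were higher and 2 lower, with Abce1 at 0.25 and Otud3 at -0.82. The 77 mitochondrial ribosomal protein genes, which serve the separate ribosome of that organelle, had 12 higher and 14 lower, with a median of -0.02. In the 6 comparisons of treatments 0 genes of any of these lists passed.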

How the data were processed

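Polyadenylated RNA was made into stranded libraries (TruSeq Stranded mRNA) and read as 52-base pairs, per the labels' protocols. Reads were handled with bcl2fastq 2.20.0, STAR and Salmon on GRCm38, per the submitters' processing notes; the sources used here do not say how strand was used. The authors deposited estimated counts per gene (45706 genes) and per transcript (109617 transcripts) for 47 libraries, unscaled; 0 columns were left out. Counts were rounded. Salmon divides reads between similar transcripts, which makes counts of near-identical copies estimates.

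Each tissue was fitted apart for treatments, and all 6 groups together for tissue contrasts and differences of effect. The test was edgeR 4.0.16's quasi-likelihood F test (R 4.3.3, robust, two-sided, group only) after TMM scaling, on genes kept by filterByExpr (at least 10 counts, 15 in total), Benjamini-Hochberg adjusted over all genes tested and called under 0.05. Isoform usage was tested with diffSpliceDGE. CPM are counts scaled to the TMM-adjusted library total; log2 CPM used a prior count of 2. TPM divided counts by the full spliced transcript length; Rpl13a and Rpl18 had no length for most counts and got none. Annotation was GENCODE M21. The fits were tested on simulated data. Python 3.11.15 and matplotlib 3.10.9 were used.

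The members and lists were chosen with earlier results of these data known. Named by rule were the 10 called members with the smallest p in each direction and all copies with their parents for the tissue comparison, the 5 with the smallest p elsewhere, and the 5 highest and lowest TPM. Members named for pseudogene, window or intron shares, and the 1.3-fold limit, were chosen after values were seen. Alternatives were RLE, upper-quartile and total-count scaling, no filter beyond 1 count, 1 CPM in 7 libraries, DESeq2 1.42.0, limma 3.58.1 voom with quality weights, only the groups compared, a looser adjusted p of 0.1, each library left out and a block for the replicate number. Added after seeing the data were fits without 6 libraries apart in markers or mitochondrial share, without 5 libraries high in choroid plexus markers, and on coding transcripts only, and shares with pseudogene rows added. Results of some genes are not reported here by name; these genes stay in the counts.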

Additional observations from a re-analysis of the deposited data

Results flagged for a closer look

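Among 84 groups of libraries examined, 7 values lay far from the rest of their group. Independent groups would give about 4.2 by chance. These groups reuse the same libraries for members that rise and fall together, so the count cannot be set against that number. In PFC PICK1i replicate 1 the members' share of counts was 1.23%, against 0.800 to 0.990% in the other 7 libraries of the group. The same library was far above its group for Rpl3 (188 CPM, others at most 162), Rplp0 (170.4 CPM, others at most 141) and Rpl12 (189 CPM, others at most 145). Hippocampal PICK1i replicate 2 was low for Rps15a (98.9 CPM, others 111 to 118). Hippocampal saline replicate 4 was low for Rps2 (118 CPM, others 132 to 142). PFC PSD-95i replicate 8 was low for Rpl22l1 (13.9 CPM, others 17.7 to 20.6).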

How the results depend on the processing

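The 8 counts of members called between treatments or for a difference of effect were 0 under every alternative run. Of the 56 members called between the tissues, 46 were called under all 11 settings that could be run on this contrast besides the looser threshold, and these 46 also without any 1 of the 47 libraries. The count over the 3 treatments ran from 46 to 69 over the settings and from 49 to 68 over single libraries left out. The saline count of 22 was 38 with limma voom and 38 with only the groups compared, and ran from 13 to 32 over single libraries left out. The PICK1i count of 22 was 37 with total-count scaling, 38 with limma voom and 4 with only the groups compared, and ran from 14 to 55. The PSD-95i count of 24 was 56 with limma voom. The cause of these changes was not tested. The shares of all genes called under each setting are not given here, so these counts do not set the members apart from other genes. Rps18 for PICK1i against saline in PFC turned to -0.0028, Rps27a in hippocampus to -0.012 and Rpl22 for the PICK1i difference of effect to 0.00054 without the 6 libraries, and Rpl18 for the PSD-95i difference of effect to 0.13 on coding transcripts (log2). With mitochondrially encoded genes left out of the total the mean share was 1.03% (saline), 1.05% (PICK1i) and 1.01% (PSD-95i) in PFC, and 1.16% (saline), 1.18% (PICK1i) and 1.14% (PSD-95i) in hippocampus. With pseudogene rows added, saline gave 1.02% in PFC and 1.15% in hippocampus, PICK1i gave 1.03% and 1.17%, and PSD-95i gave 1.01% and 1.13%. Whether same-numbered libraries came from the same mouse was not settled. Within a tissue 15 of 46 same-numbered pairs correlated above 0.1, and 4 of 46 libraries correlated best with their own number. Between the tissues, within a treatment, these numbers were 6 of 23 and 8 of 23. The fit with a replicate block called 56 members between the tissues and 0 between treatments. Its block is a number shared by all groups and not a mouse, so it cannot decide on pairing. The tissue contrast used no pairing. Depth limits the low copies: 4 members could not be tested.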
